A study of Homo sapiens with 8 samples.

Results

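The transcripts described here are the long noncoding RNAs named after a neighbouring gene: those whose symbol ends in -AS (antisense), -DT (divergent transcript), -IT1 (intronic transcript) or -OT1 (overlapping transcript). By their names, 98 of the 1950 genes in the deposited expression table belong to this class, 74 of them -AS, 21 -DT and 3 -IT1, with 0 -OT1. They were measured by RNA sequencing in K562, an established human line from chronic myeloid leukemia. The extract group holds 4 libraries (extract 1 to 4) of cells kept for 3 days with 80 µg/mL CPM, the initials of the Caulis Polygoni Multiflori in the series title. It is called the extract here, and how it was prepared is not stated. The control group holds 4 libraries (control 2 to 5, numbered as in the titles) of the same line, labelled as without CPM in their own treatment field although all 8 libraries carry 1 shared protocol text on the treatment. No time is stated for the control cultures, so time in culture and the extract cannot be told apart. The labels do not say whether the 4 libraries of a group are separate cultures, and the spread behind each p-value may be technical.

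An antisense RNA is read from the strand opposite to its partner gene and often overlaps it, while a divergent transcript starts close to the partner's start and runs the other way, frequently from a shared CpG-rich promoter. Intronic transcripts lie inside an intron of the host gene. Many such RNAs are trimmed quickly by the nuclear exosome, and a few are known to act on the gene beside them, but most have no known function.

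All values are the expression values of the deposited table, to which no source used here gives a unit, so levels are compared between libraries and not between transcripts. The table lists only genes with a deposited p-value of at most 0.0499 and a change of at least 1.5-fold between these same libraries, so every transcript below was already chosen for a difference, and neither counts of calls nor single calls are independent evidence of one. Whether reads were counted by strand was not given either. Where exons of a transcript overlap exons of a gene on the other strand, reads of the 2 genes may be shared. In bulk RNA, fewer cells carrying a transcript and less of it per cell cannot be told apart. The depth is unknown. Sums of the listed values ran from 13114 to 14134 per library and cover a partial list. Pearson correlations of log2 values over the tested genes ran from 0.938 to 0.962 for libraries of the same group and from 0.819 to 0.875 for libraries of different groups. Of the 10 erythroid and K562 markers fixed for the check of the cell line only HBZ was listed, so the table cannot test the line's identity. Of the markers of other blood cells and of tissue, 1 of 7 megakaryocyte, 2 of 6 monocyte and granulocyte, 2 of 4 lymphoid and 1 of 5 fibroblast and epithelial genes were listed, all lower with the extract in the authors' deposited table. Their part in the results below was not tested.

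Antisense and divergent transcripts with enough signal to test were mostly lower in extract-treated cells. Of the 98, 41 reached a value of 1 in 4 or more libraries and entered limma on log2(value + 1), fitted with all 750 such genes of the table. At an adjusted p under 0.05 (Benjamini-Hochberg over the 750), 36 of the 41 were called, against 82.8% of all tested genes, which is nearly the same share. Of these, 26 fell, against 56.0% of all tested genes, and 10 rose, against 26.8%. The median log2 difference of the 41 was -0.51, and that of all tested genes was -0.50. Of the 41, 5 passed the filter through 1 group only (HECW2-AS1, GABPB1-IT1, SLFNL1-AS1, SH3BP5-AS1 and SSBP3-AS1) and had to differ. The other 57 transcripts were too low to test. The median of all tested genes itself differed by -0.27 between the groups, and with libraries centred on that median 10 transcripts rose and 15 fell, against 30.4% and 32.1% of all tested genes. The 11 falls lost by centring were ARHGEF2-AS2, ATP6V1B1-AS1, BTF3-DT, GABPB1-IT1, HNRNPD-DT, KLRK1-AS1, PPP4R3B-DT, PRKACB-DT, SRP54-AS1, TOB1-AS1 and ZNF529-AS1, with limma adjusted p from 0.0508 (HNRNPD-DT) to 0.482 (KLRK1-AS1). For comparison, 63 intergenic RNAs with LINC names were listed, of which 24 were tested, 3 rose and 19 fell.

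**Figure D1:**
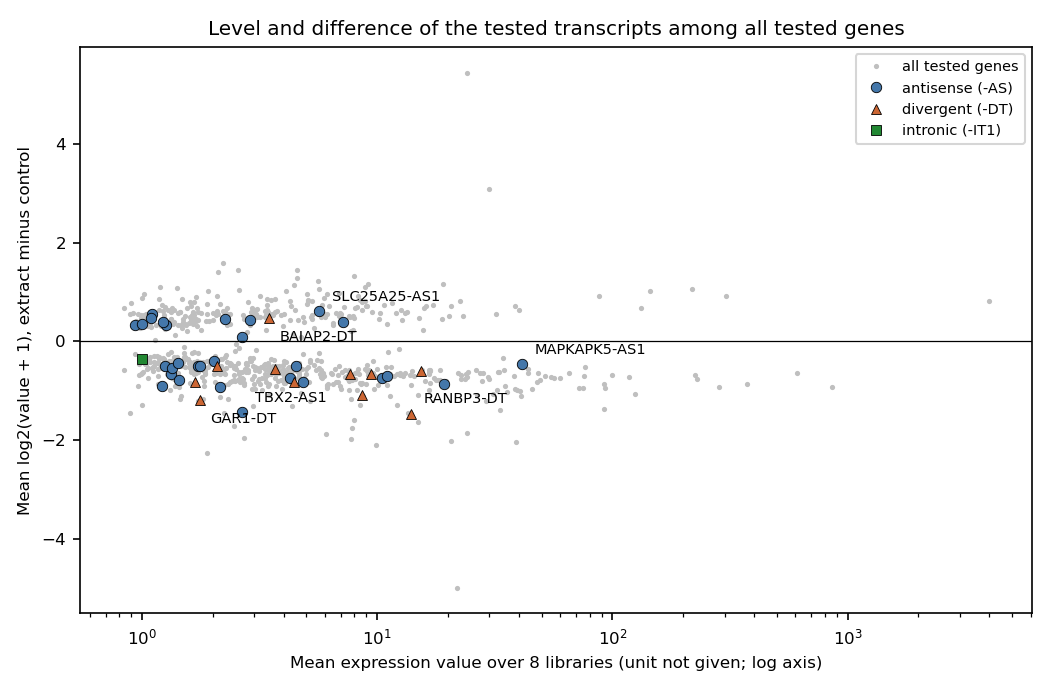
Each point is a tested gene, with its mean expression value over the 8 libraries on a log axis (unit not given) and the difference of mean log2(value + 1), extract minus control. Grey points are all 750 tested genes and coloured points the 41 antisense, divergent and intronic transcripts, most of them below 0 like most of the grey points. RANBP3-DT and TBX2-AS1 have the lowest differences among them, at -1.46 and -1.43.

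Transcripts that start head to head with their partner, on the opposite strand and without overlapping it, were mostly lower where tested, as were all tested genes. GENCODE release 29 on GRCh38, the build named in the submitters' processing notes, holds all 98 by gene ID and the partner of 97. In 18 of them transcript and partner are arranged head to head, with 72 to 747 bases (median 139) between the nearest starts. Of these, 10 were tested, 8 fell, 1 rose (BAIAP2-DT) and 1 was not called (MRPS30-DT). Their median log2 difference was -0.70. Over all tested genes 56.0% fell and the median was -0.50, and whether the head-to-head transcripts differ from them was not tested. With libraries centred on their median PRKACB-DT and BTF3-DT were no longer called, at limma adjusted p = 0.0918 and 0.214. None of the 10 shares exonic bases with another gene annotated in GENCODE.

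The stretches around the starts of 6 of these tested transcripts show the shared start region that transcript and partner run away from. They come from RefSeq's table of promoters (GRCh38.p14, 250 bases before to 50 after the start), in the direction of the noncoding transcript, and bases in exons of protein-coding genes were left off. RefSeq starts lay between 16 bases before and 162 bases after those of GENCODE. Capitals mark matches on either strand to GGGCGG (the core of the SP1 box), CCAAT, CCGGAAGT (a site for ETS factors), TATAAA and AGATAA (a site for GATA factors). RANBP3-DT (chr19:5978153-5978452, plus strand), GAR1-DT (chr4:109815333-109815509, minus), SLC30A6-DT (chr2:32165690-32165840, minus) and PAXIP1-DT (chr7:155003183-155003482, plus) fell, BAIAP2-DT (chr17:81034670-81034969, minus) rose and MRPS30-DT (chr5:44808744-44808924, minus) was not called.
RANBP3-DT: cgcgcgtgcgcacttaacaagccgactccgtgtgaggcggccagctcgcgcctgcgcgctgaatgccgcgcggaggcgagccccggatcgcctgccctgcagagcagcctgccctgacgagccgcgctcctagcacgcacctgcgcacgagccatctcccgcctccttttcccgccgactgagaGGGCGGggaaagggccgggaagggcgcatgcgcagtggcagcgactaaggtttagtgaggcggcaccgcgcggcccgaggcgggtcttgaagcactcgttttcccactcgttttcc
GAR1-DT: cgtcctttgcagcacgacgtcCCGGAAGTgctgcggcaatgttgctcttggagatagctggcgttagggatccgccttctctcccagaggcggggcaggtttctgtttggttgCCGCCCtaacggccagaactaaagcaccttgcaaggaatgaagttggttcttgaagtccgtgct
MRPS30-DT: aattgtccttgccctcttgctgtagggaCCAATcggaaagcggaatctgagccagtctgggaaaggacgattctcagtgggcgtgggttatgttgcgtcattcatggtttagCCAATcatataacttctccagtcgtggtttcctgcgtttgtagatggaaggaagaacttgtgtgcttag
SLC30A6-DT: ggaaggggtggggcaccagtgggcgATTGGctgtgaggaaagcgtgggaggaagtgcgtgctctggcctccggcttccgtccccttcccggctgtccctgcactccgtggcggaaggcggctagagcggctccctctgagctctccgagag
PAXIP1-DT: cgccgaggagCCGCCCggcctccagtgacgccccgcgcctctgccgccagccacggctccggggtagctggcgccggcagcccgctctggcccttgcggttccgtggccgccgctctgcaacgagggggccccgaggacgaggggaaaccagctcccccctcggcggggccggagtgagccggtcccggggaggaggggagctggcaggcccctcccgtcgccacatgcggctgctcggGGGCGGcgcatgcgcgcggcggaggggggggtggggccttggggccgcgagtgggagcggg
BAIAP2-DT: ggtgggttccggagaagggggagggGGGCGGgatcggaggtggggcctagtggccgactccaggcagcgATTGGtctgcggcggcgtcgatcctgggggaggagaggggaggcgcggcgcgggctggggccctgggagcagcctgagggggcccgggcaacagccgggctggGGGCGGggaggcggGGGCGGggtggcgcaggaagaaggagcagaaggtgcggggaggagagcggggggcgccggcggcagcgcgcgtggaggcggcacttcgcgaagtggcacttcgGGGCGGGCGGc
The stretch of RANBP3-DT holds 39 CpG dinucleotides, that of PAXIP1-DT 38 and that of BAIAP2-DT 33, each in 300 bases. The shorter stretches of GAR1-DT, SLC30A6-DT and MRPS30-DT (177, 151 and 181 bases) hold 11, 11 and 7. Their GC content is 56.5%, 68.2% and 48.1%, in that order. None of the 6 holds TATAAA or AGATAA. The ETS site occurs in GAR1-DT only, beside its 1 SP1 core. CCAAT or its reverse occurs 2 times in MRPS30-DT and 1 time each in SLC30A6-DT and BAIAP2-DT. Over whole windows of 300 bases, the 11 head-to-head transcripts with a RefSeq entry had a median of 31 CpG dinucleotides and a median GC content of 69.3%, against 14 and 58.7% for all 35116 promoters of the table. The SP1 core was in 63.6% of the 11 and in 45.0% of all promoters, CCAAT in 27.3% and 34.6%, the ETS site in 9.09% and 4.14%, TATAAA in 9.09% and 11.5% and AGATAA in 18.2% and 10.3%. A match says only that these letters occur in the window.

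RANBP3-DT had the lowest difference of the class on the log2(value + 1) scale. Among the tested transcripts TBX2-AS1, GAR1-DT and HECW2-AS1 had larger folds of the means. With a pseudocount of 0.1 their log2 differences were also lower (-2.12, -1.96 and -1.7 against -1.59). RANBP3-DT is a 639-base RNA on chromosome 19 (5978403 to 6020363) that starts 261 bases from RANBP3, a cofactor of nuclear export. Its values were 19.2, 22.2, 22.6 and 19.04 in control 2 to 5 and 6.44, 3.81, 9.04 and 9.63 in extract 1 to 4. The highest extract library (9.63) lay well below the lowest control (19.04), and extract 2 was lowest. The means were 20.8 ± 1.91 and 7.23 ± 2.67 (SD, n = 4 each), a 2.87-fold difference, with a log2 difference of -1.46 ± 0.235 (SE) and limma adjusted p = 0.000908.

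GAR1-DT and VPS13B-DT also fell, 4.39-fold and 2.33-fold in their means. GAR1-DT (chromosome 4, 109815047 to 109815410) starts 100 bases from GAR1, a protein of the particles that guide RNA pseudouridylation. It had 2.70, 4.48, 2.28 and 2.0 in the controls and 0.51, 0.57, 1.02 and 0.51 with the extract, so that the extract libraries lay at or below 1.02 and every control at or above 2.0. The log2 difference was -1.20 ± 0.20 (SE) at limma adjusted p = 0.00108. VPS13B-DT (chromosome 8, 98996763 to 99013044) lies beside VPS13B, a lipid transfer protein of the Golgi. It had 9.78, 8.97, 17.96 and 11.6 in the controls and 3.26, 4.88, 7.79 and 4.81 with the extract, with control 4 highest by a wide margin. The groups did not overlap, with a log2 difference of -1.08 ± 0.261 (SE) and limma adjusted p = 0.00625.

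The other head-to-head transcripts that fell did so by smaller amounts. RNF139-AS1 (chromosome 8, 124462485 to 124474576), 162 bases from the gene of the endoplasmic reticulum ubiquitin ligase RNF139, had 12.6, 12.9, 12.8 and 15.05 in the controls and 7.45, 7.63, 7.37 and 7.68 with the extract. Its extract libraries lay close together, between 7.37 and 7.68, and at limma adjusted p = 4.58e-05 it had the lowest p of the class. PAXIP1-DT (chromosome 7, 155003448 to 155005703), beside the DNA damage response gene PAXIP1, went from 18.98, 19.7, 17.3 and 18.6 to 12.96, 12.2, 10.9 and 11.9. SLC30A6-DT (chromosome 2, 32165046 to 32165757), beside a zinc transporter gene, went from 12.1, 11.7, 9.90 and 13.2 to 6.19, 7.49, 7.34 and 7.31. Both had groups that did not overlap and log2 differences of -0.60 and -0.65 (limma adjusted p = 0.000146 and 0.000629). PRKACB-DT, beside a catalytic subunit of protein kinase A, fell from 4.56 ± 0.804 to 2.77 ± 0.392. BTF3-DT, beside a gene for a factor that binds nascent proteins, fell from 2.62 ± 0.622 to 1.55 ± 0.312.

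BAIAP2-DT (chromosome 17, 81029130 to 81034881) was the head-to-head transcript that rose. It starts 241 bases from BAIAP2, which codes for a protein that bends membranes and binds actin regulators. Its values were 2.46, 2.88, 2.94 and 2.71 in the controls and 4.16, 4.42, 3.97 and 4.22 with the extract, a 1.53-fold difference of means (log2 difference 0.47 ± 0.082 (SE), limma adjusted p = 0.00134). MRPS30-DT had 5.47, 12.01, 3.51 and 3.51 in the controls and 1.57, 3.94, 2.32 and 3.25 with the extract. The control 3 value stood far above the rest, the groups overlapped and the limma adjusted p was 0.0639.

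**Figure D2:**
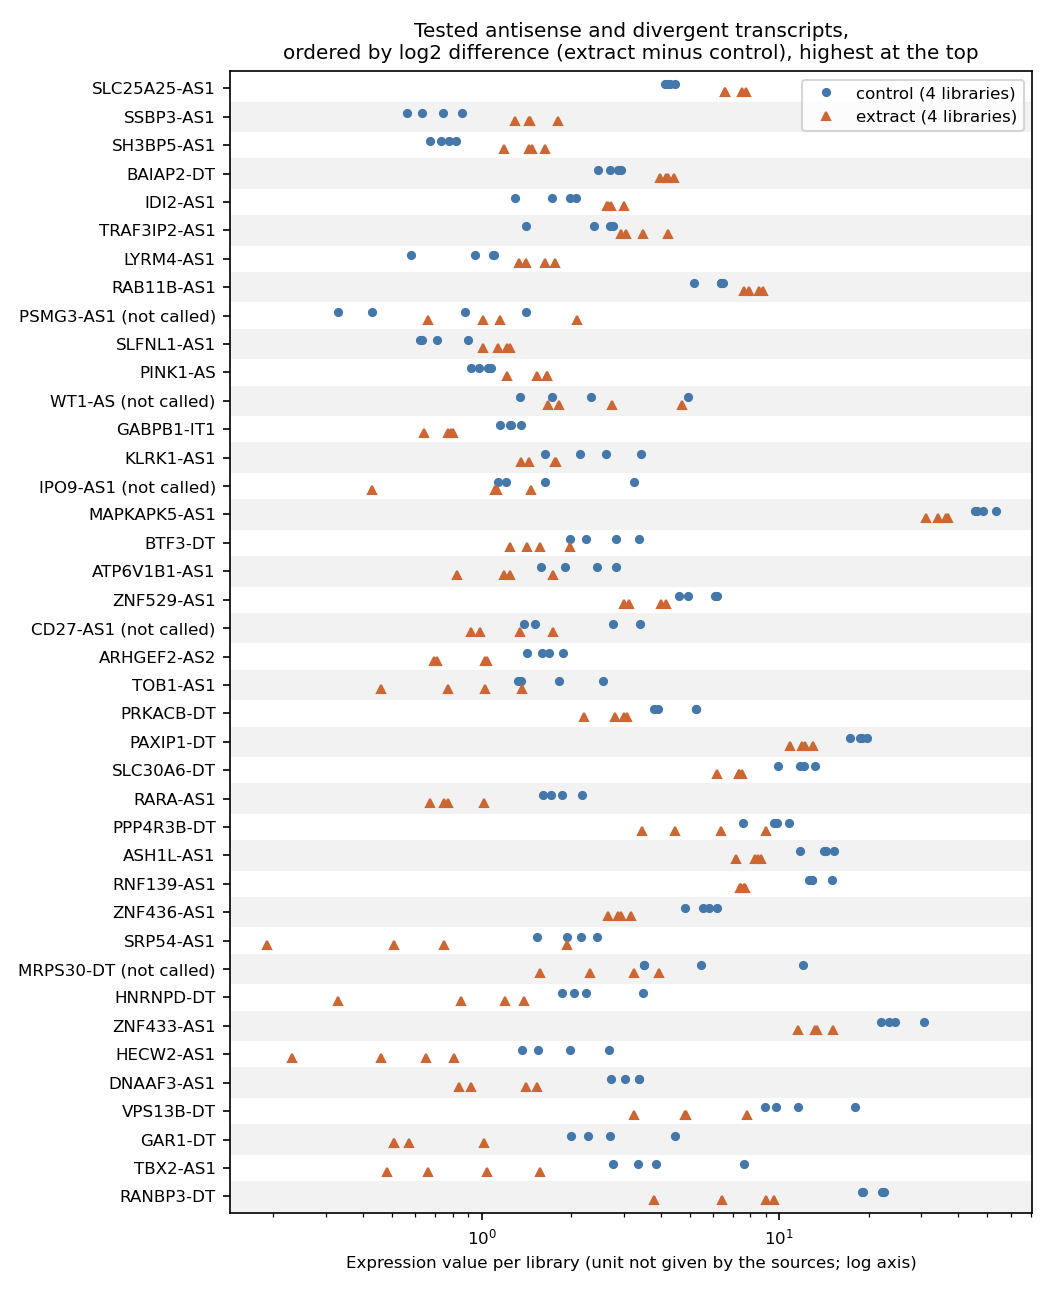
Expression values (log axis, unit not given) of 40 of the 41 tested transcripts in the 4 control libraries (circles) and the 4 extract libraries (triangles), ordered by log2 difference from SLC25A25-AS1 at the top (0.61) to RANBP3-DT at the bottom (-1.46). The 2 sets of symbols are apart in 30 rows and overlap in 10, and the 5 transcripts that were not called are marked.

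Transcripts that overlap the partner on the other strand moved in both directions. Of the 42 whose nearest annotated start lies within 1000 bases of one of the partner, 17 were tested, 12 fell and 2 rose. Of the 33 with a longer distance, 12 were tested, 5 fell and 6 rose. Over all layouts, 28 tested transcripts had starts within 1000 bases, of which 21 fell and 3 rose, and 13 had starts further away, of which 5 fell and 7 rose. The medians of the log2 difference were -0.63 and 0.32. Of all tested genes 56.0% fell and 26.8% rose, with a median of -0.50. The split beyond 1000 bases rests on transcripts that passed the filter through 1 group only and had to differ, which were SH3BP5-AS1, SLFNL1-AS1, SSBP3-AS1 and HECW2-AS1. Without these and GABPB1-IT1, in a count added after the values were seen, 20 fell and 3 rose within 1000 bases, and 4 fell and 4 rose beyond, with medians of -0.65 and -0.40. With libraries centred on their median, 12 fell and 3 rose within 1000 bases, and 3 fell and 7 rose beyond it. So centred, 32.1% of all tested genes fell and 30.4% rose. The same split among all 97 transcripts with a matched partner, by the direction in the authors' deposited table, was 39 lower and 23 higher within 1000 bases and 12 lower and 23 higher beyond. By that direction 56.4% of all listed genes were lower. The limit was chosen after the values were seen, no test of the difference was made, and with limits of 500 and 2000 bases the transcripts within it that fell and rose numbered 20 and 2, and 23 and 3.

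**Figure D3:**
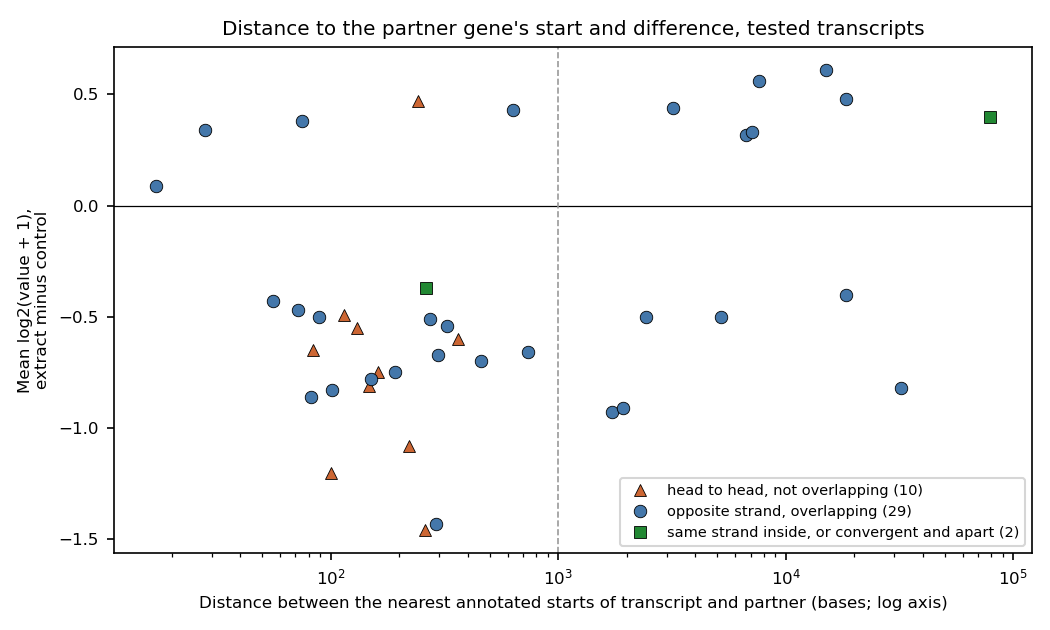
Each point is a tested transcript with a matched partner gene, with the distance in bases between the nearest annotated starts of the 2 on a log axis and the difference of mean log2(value + 1), extract minus control. Left of the dashed line at 1000 bases 21 transcripts fell and 3 rose, and right of it 5 fell and 7 rose, or 4 and 4 without those that passed the filter through 1 group only. Of all tested genes 56.0% fell and 26.8% rose.

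Exonic overlap differed between these layouts and is given beside them. No exonic base was shared with another annotated gene in 31 of the 98 transcripts, of which 16 were tested, 13 fell and 2 rose (BAIAP2-DT and LYRM4-AS1). The other 67 share exonic bases, and 25 of them were tested, of which 13 fell and 8 rose. Among all tested genes 56.0% fell and 26.8% rose, and whether either set differs from them was not tested. In the 66 that overlap exons on the opposite strand the shared part was 0.9% to 100.0% of the exonic bases, with a median of 27.5%. Exons on the same strand as the transcript, which counting by strand could not separate either, were overlapped by 7 of the 98. The shared part was 78.8% in ATP6V1B1-AS1, 18.6% in WT1-AS, 9.6% in PINK1-AS and 3.5% in ZNF436-AS1, and 12.1%, 3.4% and 0.9% in the untested EDRF1-DT, IL6-AS1 and GAS6-AS1. How much of a difference comes from reads of the overlapping gene was not tested.

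MAPKAPK5-AS1 (chromosome 12, 111839764 to 111842902) starts 72 bases from a start of MAPKAPK5, a kinase downstream of p38, and 34.6% of its exonic bases overlap exons on the other strand. Its values were 48.3, 45.4, 53.3 and 46.3 in the controls and 34.1, 36.4, 31.2 and 36.9 with the extract. The groups did not overlap and the fall was small, 1.39-fold in the means (log2 difference -0.47 ± 0.071 (SE), limma adjusted p = 0.000665). With libraries centred on their median it was still called lower, at a log2 difference of -0.20 and limma adjusted p = 0.0438. With quantile normalization, which gives the genes of highest rank common values, its log2 difference was 0.20 (limma adjusted p = 0.0668). Its direction thus depends on the scaling.

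Transcripts whose names start with ZNF, after zinc finger genes that code for DNA-binding proteins, included 3 that fell. ZFPM1-AS1 and WT1-AS, both higher in the authors' deposited table, lack this prefix and are not counted here. ZNF433-AS1 (chromosome 19, 11987617 to 12046275) had 23.3, 30.5, 22.04 and 24.5 in the controls and 15.2, 11.6, 13.2 and 13.4 with the extract, a 1.88-fold difference of means at limma adjusted p = 0.000321. ZNF436-AS1 (chromosome 1, 23368997 to 23371839) fell from 5.58 ± 0.562 to 2.92 ± 0.218, and ZNF529-AS1 (chromosome 19, 36573070 to 36594708) from 5.45 ± 0.805 to 3.58 ± 0.59. In all 3 the groups did not overlap. Of the 7 such transcripts the other 4 were too low to test, with ZNF426-DT, ZNF295-AS1 and ZNF236-DT lower and ZNF561-AS1 higher in the authors' deposited table. With libraries centred on their median ZNF529-AS1 was no longer called, at a log2 difference of -0.23 and limma adjusted p = 0.166.

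Antisense RNAs of a chromatin regulator and a nuclear receptor were among those that fell. ASH1L-AS1 (chromosome 1, 155562042 to 155563944), beside the histone methyltransferase gene ASH1L, had 11.8, 15.3, 14.1 and 14.4 in the controls and 8.29, 8.49, 8.67 and 7.16 with the extract (log2 difference -0.70 ± 0.093 (SE), limma adjusted p = 0.000336). RARA-AS1, inside the gene of the retinoic acid receptor alpha, fell from 1.84 ± 0.249 to 0.802 ± 0.151, with 31.1% of its exonic bases on exons of the other strand. ARHGEF2-AS2 fell from 1.65 ± 0.191 to 0.867 ± 0.194. All 3 had groups apart.

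HECW2-AS1, DNAAF3-AS1, HNRNPD-DT and GABPB1-IT1 also fell, with control means of at most 3.12. Of these, HECW2-AS1 and GABPB1-IT1 passed the filter through the control group only. HECW2-AS1, inside a ubiquitin ligase gene, had means of 1.90 ± 0.587 and 0.538 ± 0.25. DNAAF3-AS1, which overlaps a gene for assembly of cilium motors, had 3.12 ± 0.313 and 1.18 ± 0.346, with 54.7% of its exonic bases on exons of the other strand. The listed gene ENSG00000267110 lies at the same place. It had 3.98 ± 1.29 and 2.48 ± 0.895, with overlapping groups, and was not called (limma adjusted p = 0.0643). HNRNPD-DT, beside the gene of an RNA decay factor, had 2.42 ± 0.739 and 0.943 ± 0.466, with 22.4% of its exonic bases on such exons. GABPB1-IT1, in an intron of the gene for a partner of an ETS factor, had 1.25 ± 0.0858 and 0.75 ± 0.0744. It is read in the same direction as its host, so reads of unspliced host RNA cannot be told apart from it. In HECW2-AS1, DNAAF3-AS1, HNRNPD-DT and GABPB1-IT1 the groups did not overlap.

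The 5 least stable calls among the falls had overlapping groups: PPP4R3B-DT, SRP54-AS1, TOB1-AS1, ATP6V1B1-AS1 and KLRK1-AS1. SRP54-AS1, beside a gene of the signal recognition particle, had 2.44, 1.54, 2.16 and 1.93 in the controls and 0.19, 1.94, 0.51 and 0.75 with the extract, where extract 2 lay within the control range. PPP4R3B-DT, beside the gene of a phosphatase subunit, had 9.60, 10.8, 7.57 and 9.84 and then 4.48, 6.38, 9.04 and 3.47, where extract 3 lay above control 4. Of its exonic bases 81.3% overlap exons on the other strand. Over the 8 fits that left out 1 library the limma adjusted p was 0.00179 to 0.0569 for SRP54-AS1 (lost without control 2 or 4 or extract 1 or 3) and 0.00555 to 0.0755 for PPP4R3B-DT (lost without control 2, 3 or 5 or extract 1 or 4). For TOB1-AS1 it was 0.018 to 0.072 (lost without control 2 or 4 or extract 2 or 3), for ATP6V1B1-AS1 0.0143 to 0.0588 (lost without control 3 or 4 or extract 3) and for KLRK1-AS1 0.0156 to 0.111 (lost in all but the fit without control 4).

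Of the tested transcripts that rose, SLC25A25-AS1 had the largest difference on the log2(value + 1) scale. SSBP3-AS1 and SH3BP5-AS1 had larger folds of the means (2.15 and 1.92 against 1.66). SLC25A25-AS1 (chromosome 9, 128108581 to 128118693) overlaps SLC25A25, a mitochondrial carrier of ATP-magnesium and phosphate, with 10.4% of its exonic bases on exons of the other strand. It had 4.14, 4.19, 4.48 and 4.29 in the controls and 7.73, 7.52, 6.57 and 6.55 with the extract. The controls lay close together and every extract library was higher, with a log2 difference of 0.61 ± 0.081 (SE) and limma adjusted p = 0.000314.

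RAB11B-AS1 (chromosome 19, 8374373 to 8390685), beside the gene of a GTPase of recycling endosomes, had 6.45, 6.36, 5.17 and 6.36 in the controls and 7.90, 7.63, 8.82 and 8.58 with the extract. The groups were apart, with a 1.35-fold difference of means at limma adjusted p = 0.00485. Of the exonic bases of RAB11B-AS1, 26.6% overlap exons on the other strand. SSBP3-AS1, inside the gene of a cofactor of LIM-domain factors, rose from 0.698 ± 0.131 to 1.5 ± 0.212. SH3BP5-AS1 rose from 0.75 ± 0.0648 to 1.44 ± 0.186 and overlaps exons on the other strand for 34.4% of its bases. Both passed the filter through the extract group only.

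Antisense RNAs of a mitophagy kinase, an isoprenoid enzyme and an adaptor of interleukin-17 signaling rose as well. PINK1-AS, opposite the mitophagy kinase gene PINK1, rose from 1.01 ± 0.0718 to 1.52 ± 0.208, with 42.9% of its exonic bases on exons of the other strand. IDI2-AS1 rose from 1.77 ± 0.348 to 2.75 ± 0.176, with 57.7% on such exons. LYRM4-AS1, near a gene for iron-sulfur cluster assembly, rose from 0.93 ± 0.243 to 1.53 ± 0.194 and shares no exonic base with another gene. TRAF3IP2-AS1 rose from 2.31 ± 0.626 to 3.43 ± 0.59. Its call was lost without control 3 or 4 or extract 1, 2 or 3 (limma adjusted p 0.0388 to 0.103 over the 8 fits).

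The remaining tested transcripts not called were WT1-AS, CD27-AS1, IPO9-AS1 and PSMG3-AS1. WT1-AS, opposite the gene of the transcription factor WT1, had 4.94, 1.35, 2.34 and 1.72 in the controls and 1.67, 4.72, 1.82 and 2.75 with the extract. The highest library of each group set the means of 2.59 and 2.74, a log2 ratio of 0.08, while the authors' deposited table gave a log2 fold change of 0.64. IPO9-AS1 had 1.81 ± 0.991 and 1.03 ± 0.436 and overlaps exons for 48.0% of its bases. The listed gene NAV1, a regulator of microtubules in neurons, lies at the same place and fell from 1.63 ± 0.431 to 0.923 ± 0.182.

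For 6 transcripts the named partner gene was also listed, and transcript and partner lay on the same side in all 6. These were the partners TBX2, SLFNL1, ZFPM1, C1orf167, IL6 and FTCD. Because both genes of a pair had to differ between the same libraries to be listed, no test of the agreement was made.

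TBX2-AS1 (chromosome 17, 61393456 to 61411555) had the largest fold difference of means among the tested transcripts, and its partner TBX2, a T-box repressor of transcription, was low. TBX2-AS1 had 7.61, 3.36, 3.85 and 2.77 in the controls and 0.48, 1.57, 0.66 and 1.04 with the extract. The groups were apart, control 2 was highest, and the 4.69-fold fall of the means had a log2 difference of -1.43 ± 0.28 (SE) at limma adjusted p = 0.00224. TBX2 had 1.35, 1.22, 0.91 and 0.98 and then 0.41, 0.74, 0.36 and 0.47, which was below the test's filter, and its groups were apart too. A start of the RNA lies 290 bases from a start of TBX2, and their exons share 0 bases.

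IL6, the interleukin-6 cytokine gene, had the largest log2 difference of the partners. It had 0.77, 0.37, 0.77 and 0.55 in the controls and 4.25, 4.2, 3.61 and 3.17 with the extract, 6.19-fold in the means (log2 difference 1.58 ± 0.126 (SE), limma adjusted p = 2.13e-05). All its controls were under 1, so IL6 entered the test through the extract group only and had to differ. IL6-AS1 (chromosome 7, 22725395 to 22727620) had 0.11, 0.17, 0.14 and 0.10 in the controls and 0.42, 0.36, 0.37 and 0.23 with the extract, too low to test and with groups apart. Of the 1364 exonic bases of IL6-AS1 428 overlap exons of IL6, so shared reads cannot be told apart from antisense RNA.

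ZFPM1, the gene of the GATA1 partner FOG1, rose from 15.3 ± 0.649 to 25.9 ± 1.56 (limma adjusted p = 2.13e-05). ZFPM1-AS1 (chromosome 16, 88512960 to 88531053) was at 0 in control 2, 4 and 5 and 0.26 in control 3, and had 1.33, 0.38, 0.37 and 0.13 with the extract. Extract 4 lay below control 3. Its exons share 0 bases with those of ZFPM1, although it lies inside the gene. If reads were not counted by strand, reads of unspliced ZFPM1 RNA cannot be told apart from ZFPM1-AS1.

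FTCD, an enzyme of histidine breakdown, had 0.42 ± 0.134 in the controls and 1.25 ± 0.112 with the extract (limma adjusted p = 0.000524). FTCD and SLFNL1-AS1 also entered the test through the extract group only, so that their calls support nothing. FTCD-AS1 (chromosome 21, 46151614 to 46152647) was listed at 0 in all 4 controls and at 0.24, 0.25, 0.24 and 0.25 with the extract, and 124 of its 500 exonic bases overlap exons of FTCD. SLFNL1-AS1 (chromosome 1, 41014590 to 41043890) had 0.715 ± 0.13 in the controls and 1.15 ± 0.107 with the extract (limma adjusted p = 0.0103). SLFNL1 was under the filter at 0.143 ± 0.0386 and 0.365 ± 0.141. Of the 4800 exonic bases of SLFNL1-AS1, 1298 overlap exons of SLFNL1. C1orf167-AS1 had 0.07, 0, 0.06 and 0.04 in the controls and was listed at 0 in all extract libraries. Of its 1868 exonic bases 1304 overlap exons of C1orf167. In these pairs too, shared reads cannot be told apart from antisense RNA. C1orf167 was uneven, with 1.27, 4.30, 3.52 and 0.72 and then 2.47, 1.21, 0.07 and 1.24, and was not called (limma adjusted p = 0.246).

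**Figure D4:**
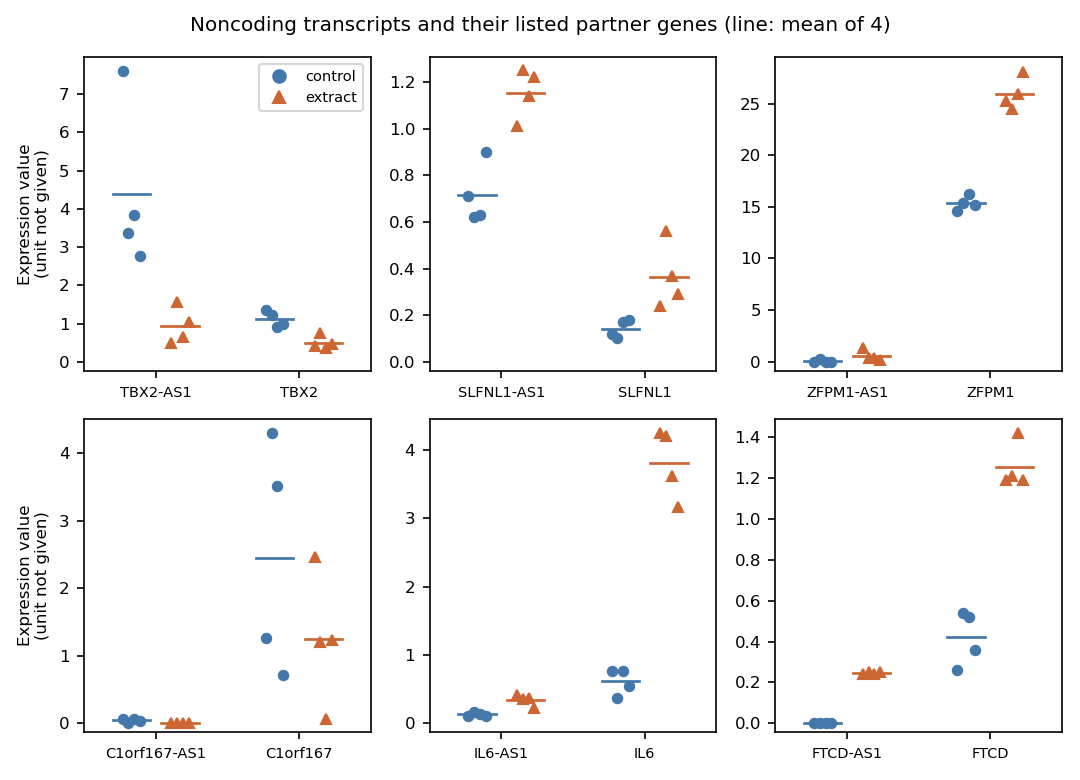
Expression values (unit not given) of the 6 noncoding transcripts and their listed partner genes in each library, with circles for control, triangles for extract and a line at the mean of the 4. In each panel transcript and partner lie on the same side, higher with the extract for SLFNL1, ZFPM1, IL6 and FTCD and lower for TBX2 and C1orf167, where C1orf167 values of the 2 groups overlap.

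The 57 transcripts below the filter differed in direction from the tested ones: the authors' deposited table gave 34 of them as higher and 23 as lower, and of all 1200 listed genes below the filter 596 and 604. TRDN-AS1 (chromosome 6, 123389421 to 123510241), opposite the muscle calcium-release gene TRDN, was listed at 0 in all 4 controls and at 3.59, 1.99, 0.82 and 0.43 with the extract. ZNF426-DT (chromosome 19, 9538733 to 9539734) had 0.80, 1.46, 1.13 and 1.06 in the controls and 0.38, 0.50, 0.20 and 0.61 with the extract. In both the groups were apart. NPTN-IT1, in an intron of the cell adhesion gene NPTN, had means of 0.575 ± 0.111 and 0.85 ± 0.0753, also apart. ATP6V0E2-AS1, NAPA-AS1, MADCAM1-AS1 and IL10RB-DT had overlapping groups, with control means of 0.685, 0.575, 0.432 and 0.385 and extract means of 1.11, 0.91, 0.973 and 0.895, in that order. Of the exonic bases of IL10RB-DT, 80.9% overlap exons on the other strand, among them those of the listed gene ENSG00000249624, which had 1.46 ± 0.554 and 1.21 ± 0.742.

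Many of the low transcripts were listed at 0 in a whole group. In 12 of the 98 all control libraries were at 0, and in 7 all extract libraries were (TLR8-AS1, FAR1-IT1, RUFY1-AS1, STAU2-AS1, MYCL-AS1, LGR4-AS1 and C1orf167-AS1). Only 1 of the 8 libraries was above 0 in 5 transcripts. These were CHMP1B-AS1 (1.19 in extract 4), C6orf47-AS1 (0.75 in extract 1), NAV2-AS3 (0.72 in extract 2), PPM1B-DT (0.24 in extract 1) and VSTM2B-DT (0.13 in extract 2). The authors' deposited table nevertheless gave them log2 fold changes of 3.72, 3.57, 3.20, 3.19 and 3.20, with p-values of 0.0179, 0.0236, 0.0472, 0.0482 and 0.0472. Without that 1 library each of these would be 0 in both groups.

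**Figure D5:**
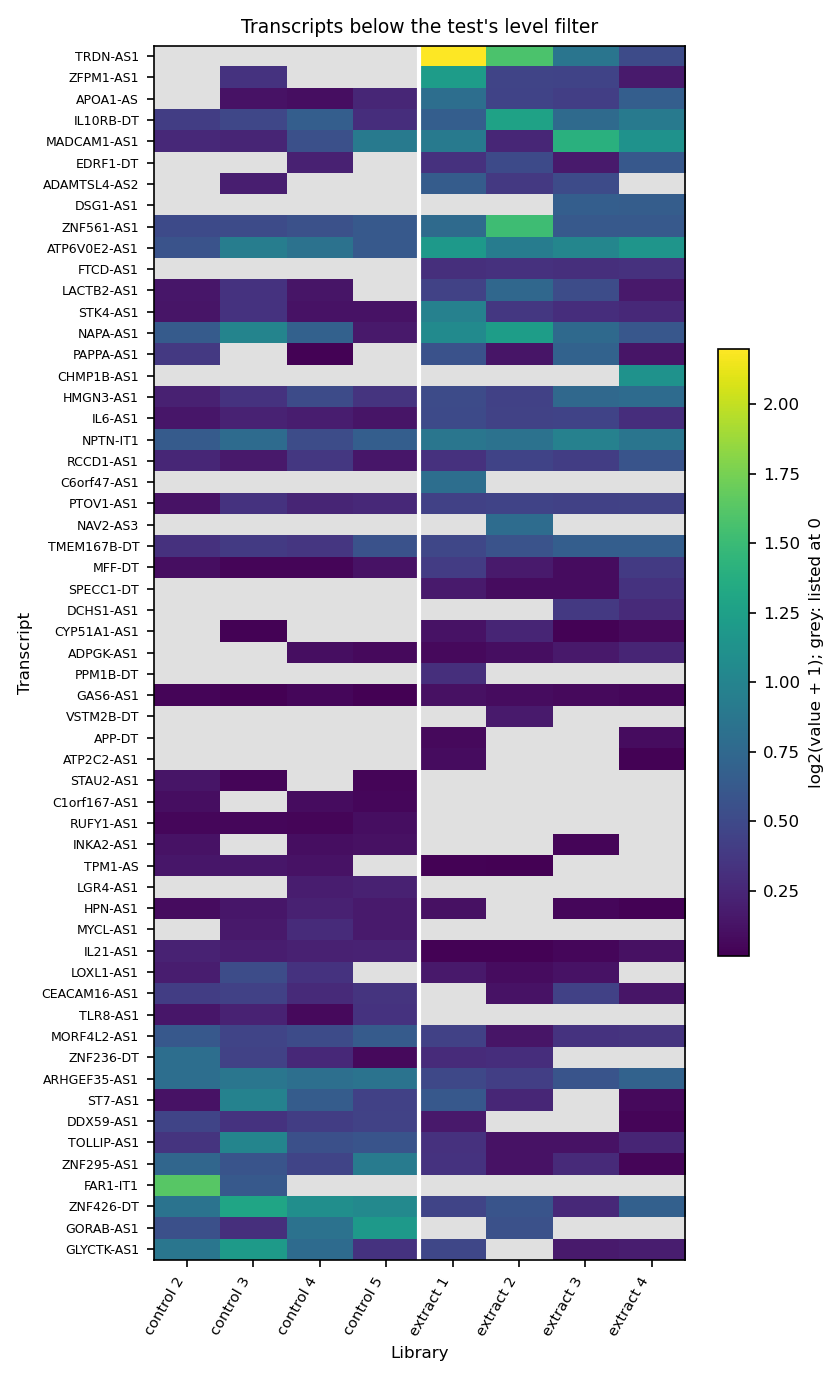
Values on the log2(value + 1) scale of the 57 transcripts below the filter (rows, ordered by difference, highest extract excess at the top) in the 8 libraries (columns), with grey where a transcript is listed at 0. TRDN-AS1 at the top is grey in all 4 controls, and 5 rows have a single coloured cell.

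Over the class, 47 of the 98 transcripts had groups apart, 17 higher and 30 lower, against 41.9% of all listed genes. Among the 41 tested transcripts this held for 31, against 67.7% of the tested genes. The authors' deposited table gave 46 of the 98 as higher and 52 as lower, where 56.4% of all listed genes were lower, and an adjusted p under 0.05 for 41 of them, against 45.9% of listed genes. By name, 11 of 21 -DT transcripts were tested, of which 9 fell and 1 rose, and 29 of 74 -AS transcripts, of which 16 fell and 9 rose. Among all tested genes 56.0% fell and 26.8% rose. When the limma p-values were adjusted over the 60664 genes behind the deposited adjusted p-values, 7 of the 41 were called, against 22.3% of the tested genes. These were RNF139-AS1, PAXIP1-DT, ZNF436-AS1, ZNF433-AS1, ASH1L-AS1 and DNAAF3-AS1, which fell, and SLC25A25-AS1, which rose.

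Of 32 genes of the fixed list for turnover and termination of such transcripts, which holds exosome and Integrator subunits and their cofactors with the nuclear RNAs NEAT1 and MALAT1, 2 were listed. INTS6, a subunit of the Integrator complex that ends short nuclear transcripts, rose, and NEAT1 fell (1 higher and 1 lower in limma). None of the exosome genes on that list was in the table.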

How the data were processed

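RNA of 8 K562 libraries was sequenced, 4 with the extract and 4 without, after TRIzol extraction and TruSeq library preparation, per the labels' protocols. HISAT2, StringTie and the build GRCh38 appear in the submitters' processing notes, without versions or roles. The authors deposited 1 expression value per gene and library, in a unit that no source used here states, and these are not counts. Their group means equal the means of these values. The authors also deposited a fold change (a ratio), its log2 and a p-value with an adjusted p-value per gene, with no tool named.

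From these values, genes with at least 1 in at least 4 of 8 libraries (750 of 1950) were tested with limma 3.58.1 in R 4.3.3 on log2(value + 1), with trended, robust moderation and Benjamini-Hochberg adjustment over the 750. A log2 difference on that scale is too small for low genes. Folds are ratios of group means. The step was tested on simulated data. Layouts, exons and coordinates are from GENCODE release 29, with IDs of 98 of 98 transcripts matched, 35 of them under another symbol there, and ZNF295 the 1 partner symbol not matched. Promoter sequences are RefSeq's, for 66 of the 98 transcripts (77 windows). The family of 60664 genes is the size between 20000 and 70000 under which the largest share of usable deposited adjusted p-values (72.1%) gave whole-number ranks within 0.02.

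Named are all tested transcripts but 1, which is counted but not reported here, those with a listed partner, and of the low ones the 5 of highest mean and the 5 of largest deposited change at a mean of at least 0.5. The genes that share a place with a transcript, those listed at 0 or above 0 in 1 library, and the group with ZNF names were chosen after their values were seen. The transcripts and lists were chosen with earlier results of these data known. Alternatives were another pseudocount (0.1), other filters, scalings, moderation and adjustment, each library left out (tested genes kept) and a replicate block.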

Additional observations from a re-analysis of the deposited data

Results flagged for a closer look

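Among 116 groups of 4 libraries, from the named transcripts and their partners, 6 had 1 library that stood well apart from its group, close to the 5.8 that chance gives at 1 in 20. In the controls, RNF139-AS1 was highest in control 5 (15.05, others 12.62 to 12.9), RAB11B-AS1 was lowest in control 4 (5.17, others 6.36 to 6.45) and ZFPM1-AS1 was above 0 in control 3 only (0.26). With the extract, SLC30A6-DT was lowest in extract 1 (6.19, others 7.31 to 7.49), GAR1-DT was highest in extract 3 (1.02, others 0.51 to 0.57) and FTCD was highest in extract 3 (1.42, others 1.19 to 1.21).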

How the results depend on the processing

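The counts of 36 called, 10 higher and 26 lower were the same with a pseudocount of 0.1 and without trend and robust moderation, and 34, 9 and 25 with a filter on a mean of at least 1. Without a filter 52 of the 98 were called, 19 higher and 33 lower. Shares over all tested genes are given above for the main fit, median centring and the authors' family only. Counts under the other settings are therefore not read as results about the class. Median centring left 15 lower calls and quantile normalization 17, with 10 higher under each. Adjustment over the authors' family left 7 calls, 1 higher and 6 lower. Leaving out 1 library gave 31 to 36 calls (9 to 10 higher, 22 to 26 lower), and 30 of the 36 calls held in all 8 fits. Counts of transcripts with groups apart were 50 to 55 with 1 library fewer, where separation comes more easily. All 6 pairs kept the same side with a pseudocount of 0.1 and in the authors' deposited fold changes. The log2 difference of MAPKAPK5-AS1 was 0.20 with quantile normalization, and that of WT1-AS ranged from -0.14 (without extract 2) to 0.36 (without control 2) and was -0.08 and -0.01 without control 3 and control 5. For both, the cause was not tested.

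The titles give the numbers 2, 3 and 4 to libraries of both groups. Same-numbered libraries deviated together with correlations of 0.075, 0.075 and 0.149, so the numbers were not taken to pair them, and control 2 correlated best with extract 1 (0.136). With the number as a replicate block 31 transcripts were called, 8 higher and 23 lower, with no share over all tested genes given. Unknown depth, an unstated unit and unstated strand counting limit all values, those of the 57 low transcripts most.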
